A study of Mus musculus with 4 samples.

Results

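The genes described here are 36 lysosome and proton pump genes: 5 lysosomal membrane proteins, 3 soluble helper proteins, 17 hydrolases, 2 transcription factors of lysosomal genes and 9 subunits of the vacuolar proton pump. They were chosen by name, and a histone mark was assigned to a gene when a peak overlapped it or lay within 1000 bp of it. All 36 were found among the 21883 protein-coding genes of the RefSeq table. ChIP-seq, in which DNA bound to a modified histone is pulled down with an antibody and sequenced, was carried out for H3K4me3, which sits at the starts of active genes, and for H3K9me3, which is typical of silenced chromatin. The cells were peritoneal macrophages that had been elicited with thioglycollate in C57BL/6 mice aged 8 weeks. The genotypes were Sun-/-, here called Sun knockout, and wild type; no label names the deleted Sun gene, so its loss could not be checked in the data. Each mark was mapped once per genotype, giving 4 libraries, and nothing says how many mice each one holds. With 1 library per group, the spread between replicates is unknown and no p-value is given for any difference between genotypes.

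The lysosome is the acidic compartment in which macrophages digest what they take up. Its hydrolases work at low pH, which the vacuolar proton pump (V-ATPase) maintains: the cytosolic V1 sector splits ATP and the membrane-embedded V0 sector carries the protons. TFEB and TFE3 are transcription factors that raise the expression of many lysosomal genes by binding an E-box (CACGTG, mostly as TCACGTG) near their starts.

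Of the 36 genes, 30 had 1 or more annotated starts in the RefSeq promoter table of GRCm38.p6, with 37 promoters of 300 bases, 250 before and 50 after the start. The letters CACGTG, which read alike on both strands, were in the promoters of 10 of these 30 genes (33.3%) and of 1559 of all 17491 protein-coding genes with a start (8.91%). All 10 also held the longer TCACGTG, which contains CACGTG and was searched on both strands. By promoter, TCACGTG was in 27.0% of the 37 promoters and in 4.39% of all 21262 promoters of protein-coding genes. The genes were Arsa, Atp6v0d1, Atp6v1a, Cln3, Gaa, Glb1, Lamp1, Mcoln1, Naglu and Sgsh. Lamp1 held 4 matches and Mcoln1 and Cln3 held 2 each. The sequences below are the 250 bases before the start of the 6 genes with the most H3K4me3 tags among those with a TCACGTG in that stretch, shown because they are the stretch that the H3K4me3 peaks described next flank or cover. They are written 5′ to 3′ along the gene, with TCACGTG or its reverse, CACGTGA, in capitals. They come from RefSeq, GRCm38.p6, and for Cln3 the start is one of several.
Cln3 (chr7:126583237-126583486, minus strand): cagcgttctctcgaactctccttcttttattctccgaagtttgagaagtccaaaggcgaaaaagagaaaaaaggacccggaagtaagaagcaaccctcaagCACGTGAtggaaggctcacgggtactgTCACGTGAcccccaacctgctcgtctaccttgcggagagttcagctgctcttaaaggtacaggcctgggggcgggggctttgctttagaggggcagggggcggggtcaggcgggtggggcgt
Mcoln1 (chr8:3500269-3500518, plus strand): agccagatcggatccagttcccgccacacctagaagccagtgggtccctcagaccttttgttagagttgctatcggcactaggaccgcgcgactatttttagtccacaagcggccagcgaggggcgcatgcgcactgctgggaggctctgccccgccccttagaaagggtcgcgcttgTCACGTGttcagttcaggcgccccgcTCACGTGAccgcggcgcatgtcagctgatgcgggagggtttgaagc
Atp6v1a (chr16:44139260-44139509, minus strand): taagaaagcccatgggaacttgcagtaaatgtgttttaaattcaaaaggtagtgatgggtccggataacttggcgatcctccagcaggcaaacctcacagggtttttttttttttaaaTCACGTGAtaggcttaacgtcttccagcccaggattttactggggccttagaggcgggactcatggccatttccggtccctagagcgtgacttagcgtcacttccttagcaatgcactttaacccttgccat
Sgsh (chr11:119355511-119355760, minus strand): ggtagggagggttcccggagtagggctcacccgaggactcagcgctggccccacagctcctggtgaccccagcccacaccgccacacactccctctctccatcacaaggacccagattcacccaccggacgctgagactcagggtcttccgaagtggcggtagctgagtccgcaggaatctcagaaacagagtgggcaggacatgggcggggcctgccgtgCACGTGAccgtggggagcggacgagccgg
Lamp1 (chr8:13158911-13159160, plus strand): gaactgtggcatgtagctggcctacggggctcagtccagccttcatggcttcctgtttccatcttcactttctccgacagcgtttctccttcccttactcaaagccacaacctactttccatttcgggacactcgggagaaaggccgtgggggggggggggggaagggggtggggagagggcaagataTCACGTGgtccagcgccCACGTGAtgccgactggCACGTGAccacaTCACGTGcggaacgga
Glb1 (chr9:114400828-114401077, plus strand): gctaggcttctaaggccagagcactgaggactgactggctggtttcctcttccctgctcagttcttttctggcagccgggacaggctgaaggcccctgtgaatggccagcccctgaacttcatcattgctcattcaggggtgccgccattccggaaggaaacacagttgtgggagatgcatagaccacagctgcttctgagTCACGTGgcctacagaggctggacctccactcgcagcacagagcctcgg

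The first base of CACGTG lay 61, 45, 28 and 15 bases before the start of Lamp1, 71 and 45 before that of Mcoln1, 149 and 121 before that of Cln3, 131 before that of Atp6v1a, 48 before that of Glb1 and 29 before that of Sgsh. A match is a description of the letters and was not tied to binding in these cells. The 10 genes with the E-box had a median H3K4me3 density of 120 tags per kb of peak in Sun knockout and 156 in wild type, and the 20 genes without it had 112 in Sun knockout and 135 in wild type (Psap, which had no Sun knockout peak, entered the wild-type value only).

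H3K4me3 was present at nearly all of these genes in both genotypes. A peak was called at 35 of the 36 in both libraries, at 0 in Sun knockout alone, at 1 (Psap) in wild type alone and at 0 in neither. Among all protein-coding genes 67.3% had a peak in both, 1.43% in Sun knockout alone, 2.93% in wild type alone and 28.3% in neither. The genes held 56 peaks with 12595 tags over 111628 bp in Sun knockout, and 64 peaks with 18813 tags over 134476 bp in wild type. A tag is 1 sequenced read placed in a peak after duplicates were removed. The median gene had 306 tags in 2466 bp in Sun knockout (range of tags 67 to 1072), and 446 tags in 2991 bp in wild type (49 to 2084). On tags per kb of peak the median gene of the group stood at percentile 60.0 of all marked genes in Sun knockout and 55.4 in wild type.

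Unscaled tags were lower in Sun knockout at 33 of the 35 genes with peaks in both, which is the direction of the whole table: 94.0% of all 14395 genes compared had fewer tags there. A gene was compared when it had a peak in both genotypes and at least 50 tags in 1 of them. The Sun knockout library was the smaller of the pair, with 26748289 filtered tags against 29681491 in wild type, and 14.0% of its tags lay in peaks, against 17.8% in wild type. The log2 ratio of tags and that of tags per kb, Sun knockout over wild type, are therefore given relative to the median of all genes compared, which was -0.52 for unscaled tags and -0.33 for unscaled tags per kb. Length ratios are not centred, and their median over all genes was -0.15. Intervals of these ratios are 95% intervals and cover counting error only, with no allowance for the placing of peak edges or for differences between animals. Fewer cells carrying a mark and less of it per cell cannot be told apart.

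**Figure D1:**
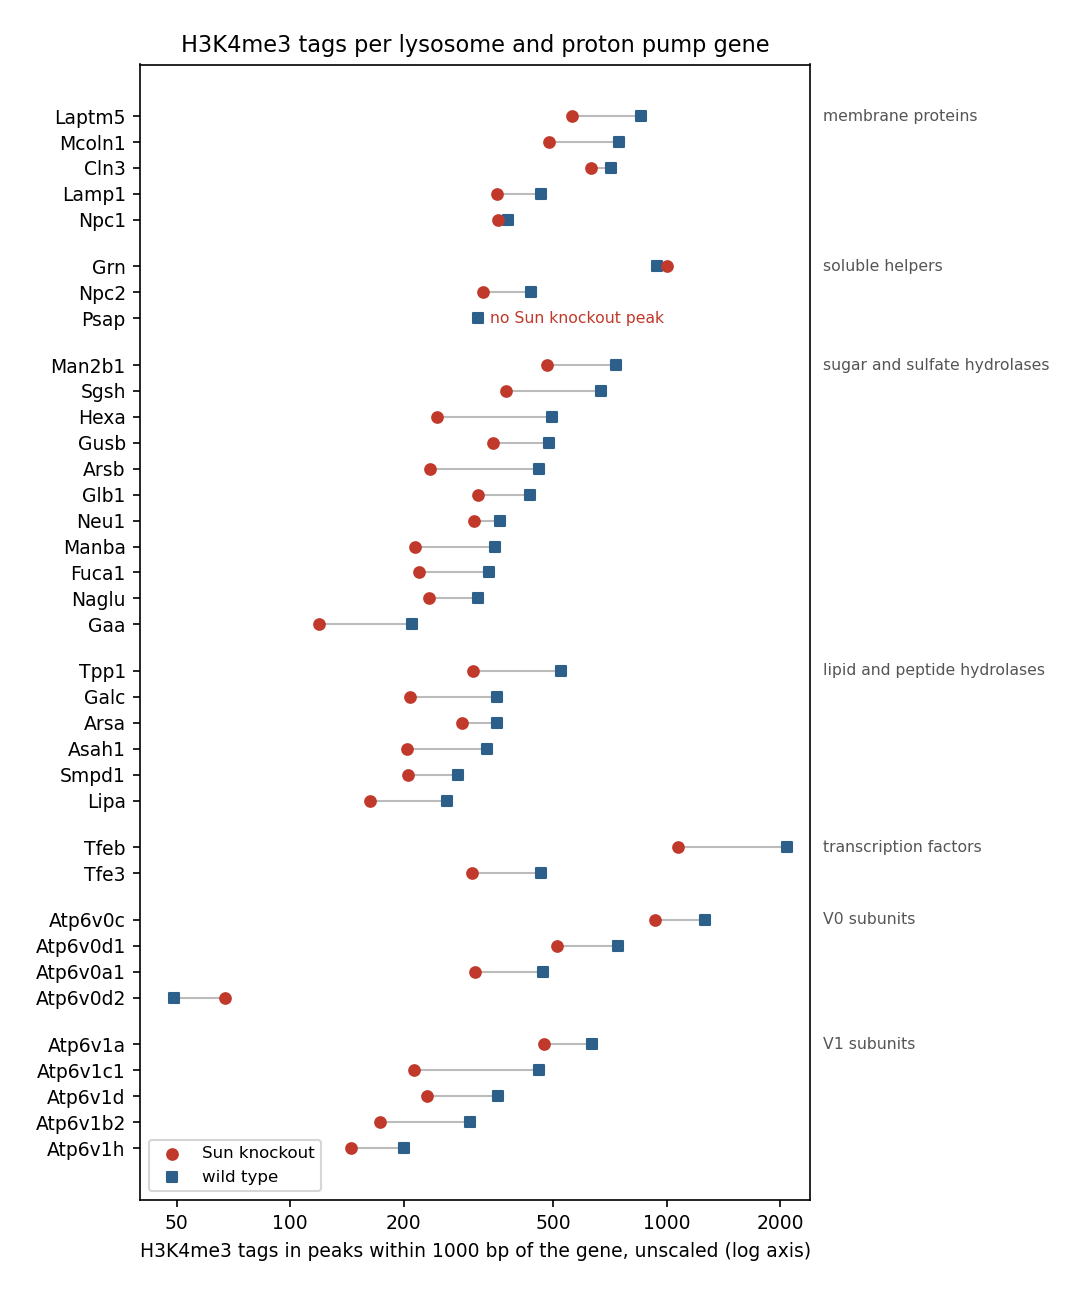
Unscaled H3K4me3 tags in the peaks of each of the 36 genes (log axis) in Sun knockout (circles) and wild type (squares), 1 library each, grouped by role. The Sun knockout value lies to the left of the wild-type value except at Grn and Atp6v0d2, and Psap has a wild-type value alone.

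On this relative scale no gene differed by 2-fold or more in tags per kb (0 higher and 0 lower, against 0.111% and 0.0278% of all genes) or in tags (0 and 0, against 1.65% and 1.58%). Peak length was at least 2-fold lower in Sun knockout at 2 genes, Arsb and Atp6v1c1, and at least 2-fold higher at 0, against 5.57% and 0.986% of all genes. Neither gene passed 2-fold in length with a score limit of 100, where Npc2 (-1.16) and Tfe3 (-1.95) did. The centred log2 density ratio had a median of -0.04 over the 35 genes (SD 0.26, range -0.58 to 0.53), with 16 above 0 and 19 below, where the centring puts equal numbers of all genes on either side. Over all genes the SD was 0.25 and the 5th to 95th percentiles were -0.37 to 0.43. The interval lay above 0 at 8 genes and below 0 at 6, where 14.9% and 11.3% of all genes did so. For the tag ratio these numbers were 5 and 7 genes, and 17.1% and 17.0% of all genes. Peaks were shorter in Sun knockout at 25 of the 35, against 71.3% of all genes. The values below describe how the members differ among themselves.

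**Figure D2:**
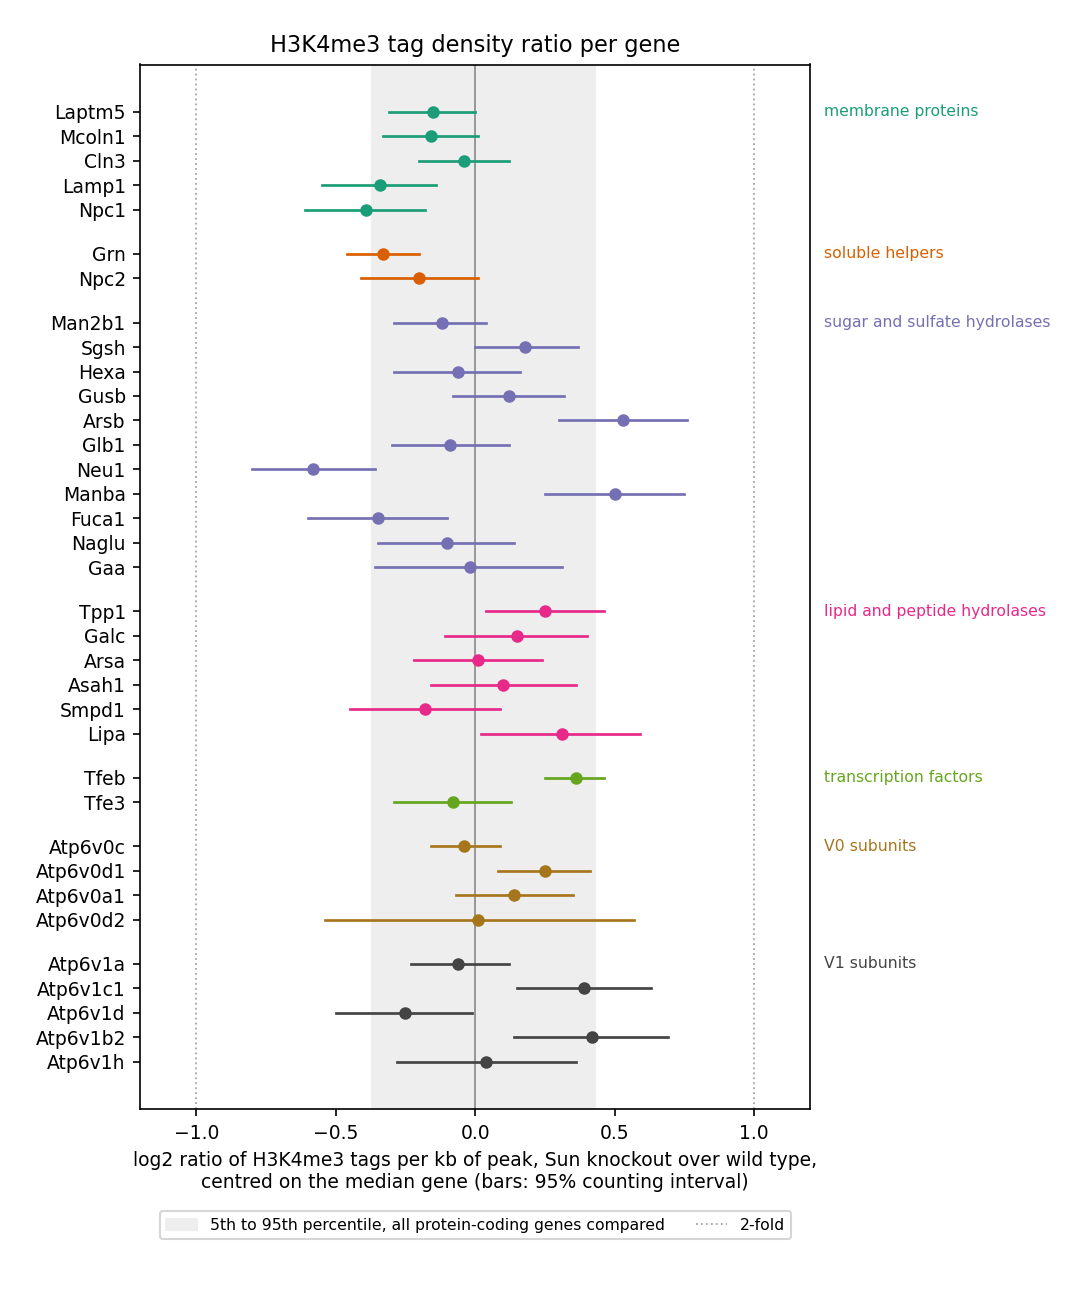
Centred log2 ratio of H3K4me3 tags per kb of peak, Sun knockout over wild type, for the 35 genes with peaks in both genotypes, grouped by role, with 95% counting intervals as bars. All values lie between the dotted 2-fold lines, the 5 membrane proteins lie below 0, and the grey band holds the 5th to 95th percentiles of all genes (-0.37 to 0.43).

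All 5 membrane proteins had a density ratio below 0 (median -0.16), while 3 of the 5 had a tag ratio above 0 (median 0.14). For Cln3 the density ratio of -0.04 became 0.03 with a score limit of 100 and 0.06 from its start peaks alone. Lamp1, the major glycoprotein of the lysosomal membrane, had 355 tags over 2763 bp in Sun knockout and 462 tags over 2253 bp in wild type. Its Sun knockout peak held fewer unscaled tags over a longer stretch. The centred tag ratio was 0.14 (-0.06 to 0.34) and the centred density ratio was -0.34 (-0.55 to -0.14). Counted from the start, the Sun knockout peak ran from -64 to 2698 bp and the wild-type peak from -573 to 1679 bp. Npc1, which exports cholesterol from the lysosome, had 356 tags over 3478 bp in 2 peaks in Sun knockout and 378 tags over 2233 bp in 1 peak in wild type. Its density ratio was -0.39 (-0.61 to -0.18), its tag ratio was 0.43 and its length ratio was 0.64. Mcoln1, a cation channel that releases lysosomal calcium, had 486 tags in Sun knockout and 746 in wild type, with a density ratio of -0.16 (-0.33 to 0.01). Of these tags, 293 in Sun knockout and 440 in wild type lay in a peak past the end of the gene that holds the start of Pnpla6. At the start of Mcoln1 itself the peaks held 193 and 306 tags in Sun knockout and wild type.

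Laptm5, a lysosomal membrane protein of blood cells, carried a single broad peak in each genotype, with 559 tags over 5969 bp in Sun knockout and 853 tags over 6508 bp in wild type. Its density ratio was -0.15 (-0.31 to 0.00). Both peaks began upstream of the start, and the Sun knockout peak reached 5706 bp into the gene with its summit 560 bp past the start. Cln3, a membrane protein lost in juvenile Batten disease, had 629 tags in 3 peaks in Sun knockout and 711 tags in 1 peak in wild type. The tag ratio was 0.34 (0.19 to 0.50) and the density ratio was -0.04, and the largest peak in both genotypes also holds the start of the neighbouring Apobr.

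The 3 soluble helpers included the 1 gene with a peak in a single genotype. Psap encodes prosaposin, the precursor of the saposins that present sphingolipids to hydrolases. It had no peak in Sun knockout, and in wild type 1 peak of 315 tags (chromosome 10, 60284329 to 60286628, 2300 bp) that covers the gene's second annotated start at 60284461. The nearest Sun knockout peak lay 14184 bp from that start and held 75 tags. At the first annotated start, 60277628, neither library had a peak. The wild-type Psap peak had many tags but a low score, where the score is the caller's -10 times log10 of p and weighs the tags against up to 10000 bp around the peak: it was 107.47, with a fold enrichment of 4.06. Of the 88 wild-type peaks in the table with at least 300 tags and a score from 100 to 150, 76 (86.4%, exact interval 77.4% to 92.8%) overlapped a Sun knockout peak, as against 5127 of 5130 (99.9%) with a score of 400 or more. That interval takes the peaks of 1 library as independent. The peak lists hold no tags outside peaks, so the absence of a call at Psap does not measure how many tags lay there in Sun knockout.

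Grn, which encodes progranulin, a regulator of lysosomal enzymes, had 999 tags over 9453 bp in Sun knockout and 942 tags over 5650 bp in wild type. It was 1 of the 2 genes with more unscaled tags in Sun knockout, with a tag ratio of 0.61 (0.48 to 0.74), a length ratio of 0.74 and a density ratio of -0.33 (-0.46 to -0.20). Its peak at the start held 655 tags over 5956 bp in Sun knockout and 710 tags over 4110 bp in wild type. Its second peak lies past the gene's end toward Fam171a2 and held 344 tags over 3497 bp in Sun knockout and 232 tags over 1540 bp in wild type. The highest score at Grn was 79.4 in Sun knockout and 324 in wild type, and with a limit of 100 on the score Grn counted as marked in wild type alone. Npc2, which hands cholesterol to NPC1, had 325 tags in Sun knockout and 435 in wild type, with a density ratio of -0.20 (-0.41 to 0.01).

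The 11 sugar and sulfate hydrolases held both ends of the range. Neu1, the lysosomal sialidase, had 307 tags over 1900 bp in Sun knockout and 360 tags over 1186 bp in wild type, and so 162 tags per kb in Sun knockout and 304 in wild type. Its density stood at percentile 88.8 of marked genes in Sun knockout and 99.7 in wild type, and its ratio was the lowest of the 35 at -0.58 (-0.80 to -0.36), except with merged peaks, where Atp6v0d2 was lower. The tag ratio was 0.29 (0.07 to 0.51), in the opposite direction. Fuca1, an alpha-fucosidase, had 220 tags in Sun knockout and 337 in wild type over peaks of 1798 and 1716 bp, and a density ratio of -0.35 (-0.60 to -0.10).

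At the other end was Arsb, a sulfatase of dermatan and chondroitin sulfate. It had 235 tags over 2102 bp in 2 peaks in Sun knockout and 458 tags over 4711 bp in 4 peaks in wild type. The density ratio was the highest of the 35 at 0.53 (0.30 to 0.76), while the tag ratio was -0.44 (-0.67 to -0.21) and the length ratio was -1.16. The peak at the Arsb start was alike in length, with 213 tags over 1602 bp in Sun knockout and 285 tags over 1600 bp in wild type. Taken from the peak with the most tags alone, the density ratio was -0.06, so the value over the whole gene came with the peaks inside it: 1 of 22 tags in Sun knockout and 3 of 21, 93 and 59 tags in wild type, none of which overlapped between genotypes. Manba, a beta-mannosidase, had 214 tags over 1666 bp in Sun knockout and 350 tags over 3073 bp in wild type, with a ratio of 0.50 (0.25 to 0.75). From its strongest peak alone the ratio was 0.24.

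Hexa, the alpha subunit of the hexosaminidase that degrades GM2 ganglioside, had 245 tags over 3030 bp in Sun knockout and 497 tags over 4691 bp in wild type. Its tag ratio of -0.50 (-0.73 to -0.28) was the second lowest of the group, and its density ratio was -0.06 (-0.29 to 0.16). Sgsh, a sulfatase of heparan sulfate, had 374 tags over 3114 bp in Sun knockout and 669 tags over 5024 bp in wild type, with a tag ratio of -0.32 (-0.50 to -0.13). In both genes the peak at the start was shorter downstream in Sun knockout: it reached 1551 bp into Hexa in Sun knockout and 3099 bp in wild type, and 1211 bp into Sgsh in Sun knockout and 3332 bp in wild type. Gaa, the acid alpha-glucosidase that degrades glycogen, was among the least marked, with 119 tags in Sun knockout and 211 in wild type and a ratio of -0.02 (-0.36 to 0.31). Glb1 (beta-galactosidase), Naglu (heparan sulfate), Gusb (beta-glucuronidase) and Man2b1 (an alpha-mannosidase) had density ratios of -0.09, -0.10, 0.12 and -0.12. At Man2b1, 309 of the 480 tags in Sun knockout and 430 of the 734 in wild type lay in a peak that holds the starts of the neighbours Wdr83 and Wdr83os.

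The 6 lipid and peptide hydrolases had a median density ratio of 0.12, with 5 above 0, and tag ratios from -0.25 to 0.22. Lipa, the acid lipase that splits cholesterol esters and triglycerides, had 163 tags in Sun knockout and 261 in wild type, and a density ratio of 0.31 (0.02 to 0.59). From the peaks at its start alone the ratio was 0.05, and a further peak of 32 tags inside Lipa was called in wild type alone. Tpp1, a tripeptidyl peptidase, had 306 tags in Sun knockout and 523 in wild type, and a ratio of 0.25 (0.04 to 0.46). Only a part of the Tpp1 tags lay at its own start, 82 in Sun knockout and 192 in wild type, since its other peak holds the start of Taf10. Galc (galactosylceramidase), Asah1 (acid ceramidase), Arsa (arylsulfatase A, which acts on sulfatides) and Smpd1 (acid sphingomyelinase) had ratios of 0.15, 0.10, 0.01 and -0.18, each with an interval that included 0.

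**Figure D3:**
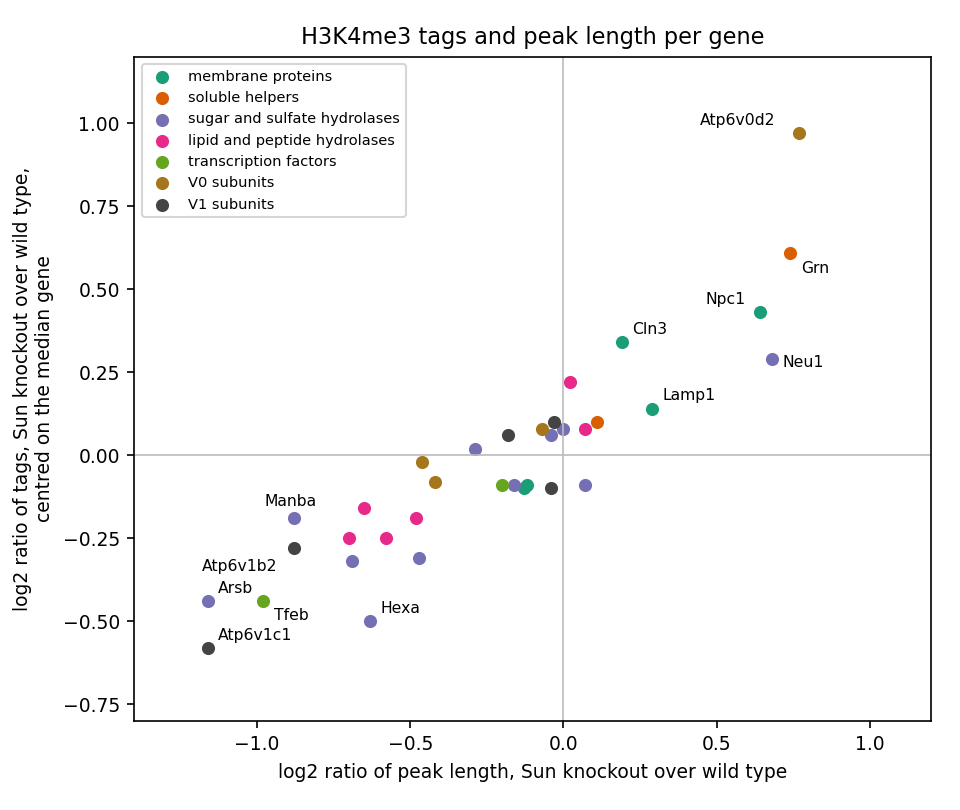
Centred log2 tag ratio (vertical) against log2 peak length ratio (horizontal), Sun knockout over wild type, for the 35 genes with peaks in both genotypes, coloured by role. Arsb, Atp6v1c1 and Tfeb lie at the lower left with length ratios of -1.16, -1.16 and -0.98, and Atp6v0d2, Grn, Npc1 and Neu1 at the upper right.

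The plot of tags against length shows that genes with longer peaks in Sun knockout also had higher tag ratios. Across the 35 genes the tag ratio and the length ratio had Pearson's r of 0.90 and Spearman's rho of 0.91, and the density ratio and the length ratio had -0.86 and -0.84. The same measures over all 14395 genes were 0.85 and 0.80, and -0.53 and -0.55. The ratios share their tags and lengths by construction and the genes share 1 pair of libraries, so these values describe the lists and carry no test.

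Of the 2 transcription factors, Tfeb was the most heavily marked gene of the group. It had 1072 tags over 7356 bp in 3 peaks in Sun knockout and 2084 tags over 14551 bp in 6 peaks in wild type. The density ratio was 0.36 (0.25 to 0.46), the tag ratio -0.44 (-0.55 to -0.33) and the length ratio -0.98, just short of 2-fold. The peak at its first start (47737037 on chromosome 17) held 693 tags over 3087 bp in Sun knockout and 921 tags over 3134 bp in wild type, and from this peak alone the density ratio was -0.03. A peak inside the gene held 317 tags over 3138 bp in Sun knockout and 589 tags over 5049 bp in wild type. Of the remaining peaks, 1 of 62 tags was called in Sun knockout alone and 4 of 53 to 211 tags in wild type alone. Tfe3 had 303 tags over 3916 bp in 2 peaks in Sun knockout and 463 tags over 4507 bp in 1 peak in wild type, with a density ratio of -0.08 (-0.29 to 0.13). The single wild-type peak and the pair of Sun knockout peaks covered about the same stretch. With a score limit of 100 the second of the pair, with 181 tags and a score of 96.66, was lost, and the tag ratio of Tfe3 became -1.39.

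The proton pump genes were marked in both genotypes at all 9 subunits, with a median density ratio of 0.04. With a score limit of 100, Atp6v0d2 was marked in neither. Atp6v0c, whose product forms the proton-carrying ring of V0, was the most marked of them, with 932 tags in Sun knockout and 1262 in wild type and a ratio of -0.04 (-0.16 to 0.09). Its start peak held 637 of these tags in Sun knockout and 854 in wild type, and its other peak holds the start of Amdhd2. Atp6v0d1 and Atp6v0a1, V0 subunits made in most tissues, had ratios of 0.25 (0.08 to 0.41) and 0.14 (-0.07 to 0.35). From the peak with the most tags alone the ratio of Atp6v0d1 was 0.52. Atp6v0d2, the d subunit known from osteoclasts and macrophages, was the least marked member, with 67 tags over 1209 bp in 2 peaks in Sun knockout and 49 tags over 707 bp in 1 peak in wild type. Its density was at percentile 7.79 of marked genes in Sun knockout and 10.7 in wild type. It had more tags in Sun knockout before any scaling, and the highest tag ratio of the group at 0.97 (0.42 to 1.53), but its density ratio was 0.01 (-0.54 to 0.57). With peaks within 1000 bp merged the density ratio became -0.72, lower than that of any other member. The second Sun knockout peak, of 36 tags, lies at the gene boundary at 19922566 on chromosome 4 and had a score of 50.40, close to the limit of the caller.

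Among the V1 subunits, Atp6v1c1 had 213 tags over 1589 bp in 1 peak in Sun knockout and 457 tags over 3548 bp in 3 peaks in wild type. Its tag ratio of -0.58 (-0.82 to -0.34) was the lowest of the group and its length ratio was -1.16, while the density ratio was 0.39 (0.15 to 0.63), or 0.11 from the strongest peak alone. Atp6v1b2, the B subunit of most cells, had 173 tags over 1041 bp in Sun knockout and 301 tags over 1922 bp in wild type, 1 peak each, with a density ratio of 0.42 (0.14 to 0.69). Here the peaks began at nearly the same position, 69088734 in Sun knockout and 69088731 in wild type on chromosome 8, and ended at 69089774 and 69090652. Atp6v1a, the ATP-splitting subunit, had 471 tags in Sun knockout and 631 in wild type, and a ratio of -0.06 (-0.23 to 0.12). Of these tags, 288 in Sun knockout and 371 in wild type lay in an upstream peak that holds the start of Naa50, and from this peak alone, the one with the most tags, the ratio was -0.54. With peaks within 1000 bp merged it was 0.16. Atp6v1d and Atp6v1h, a stalk subunit and a regulatory subunit, had ratios of -0.25 (-0.50 to -0.01) and 0.04 (-0.28 to 0.36). At Atp6v1d, 105 of the 231 tags in Sun knockout and 156 of the 356 in wild type lay in a peak that holds the start of Eif2s1. Atp6v1h was among the 4 genes with the fewest tags, with 145 in Sun knockout and 200 in wild type.

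**Figure D4:**
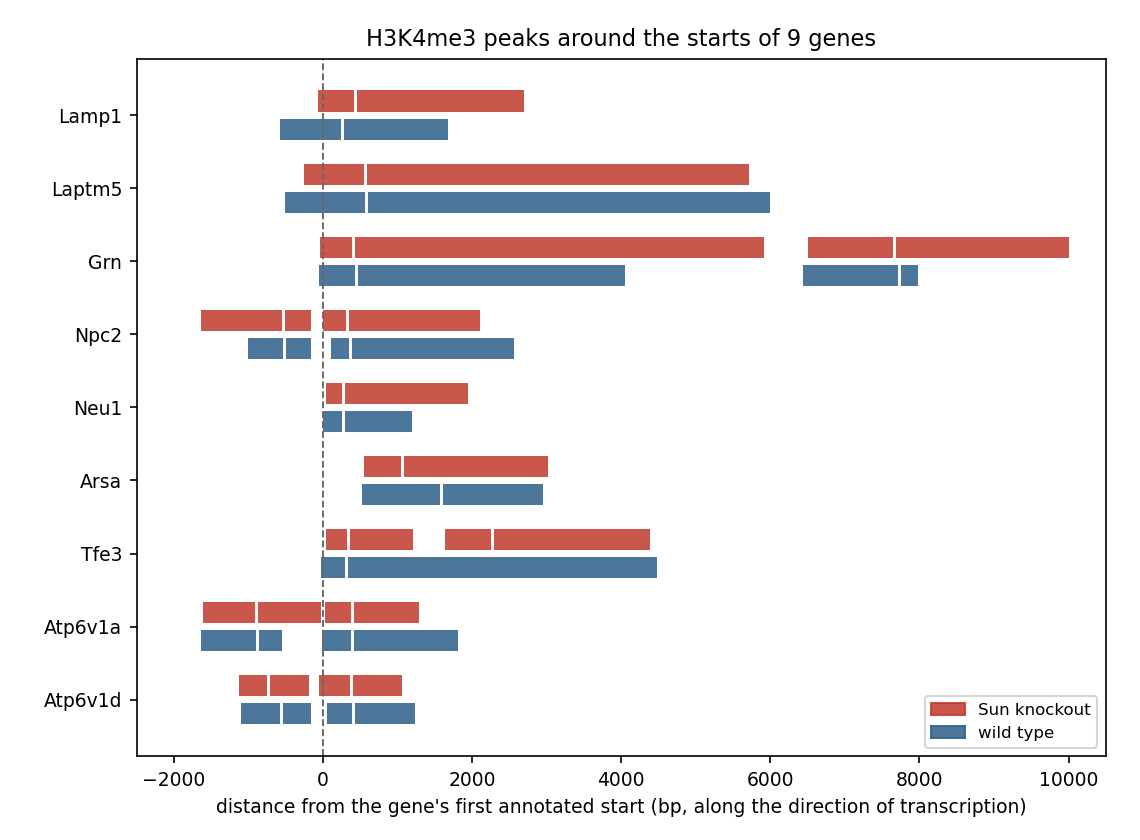
H3K4me3 peaks of 9 genes in Sun knockout (upper bar) and wild type (lower bar), by distance in bp from the first annotated start along the direction of transcription; white lines mark summits. Most peaks extend farther downstream than upstream, and at Npc2 the start lies between 2 peaks in both genotypes.

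The position of the mark around the starts was read from the peak edges and summits. Of the 30 genes with an annotated start, 29 had a peak within 1000 bp of it in Sun knockout and 30 in wild type, where all protein-coding genes with a start had 63.2% and 64.7%. The start itself lay inside a peak at 23 of the 29 genes in Sun knockout (79.3%) and at 27 of the 30 in wild type (90.0%), against 86.4% and 90.9% of all genes with such a peak. It lay in a gap between flanking peaks at 3 genes in Sun knockout (Npc2, Atp6v1a and, at one of its later starts, Tfe3) and at 2 in wild type (Npc2 and Atp6v1d), 10.3% and 6.67%, against 3.08% and 2.63% of all genes. The summit was downstream of the start at 26 of 29 genes in Sun knockout (89.7%) and 28 of 30 in wild type (93.3%), against 81.9% and 81.5% of all genes. Some summits used lie in a peak that holds a neighbour's start. At Man2b1 this was so in Sun knockout alone (-2894 bp, against 147 bp in wild type), and at Atp6v1a in both (-904 and -888 bp). The median summit lay 249 bp past the start in Sun knockout and 288 bp in wild type, against 197 and 180 bp for all genes. The median reach downstream was 1551 bp in Sun knockout and 1628 bp in wild type, against 1031 and 1138 bp for all genes, and the median reach upstream was 262 bp in Sun knockout and 494 bp in wild type, against 409 and 511 bp for all genes. At Neu1 the Sun knockout peak began 44 bp after the start, and the wild-type peak began at it. At Arsa no peak reached the start in either genotype: the peaks began 544 bp after it in Sun knockout and 516 bp after it in wild type.

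Peaks of these genes were found again in the other genotype for 51 of 56 in Sun knockout (91.1%) and 49 of 64 in wild type (76.6%), against 85.9% and 77.3% of all peaks at protein-coding genes. The number of peaks was higher in Sun knockout at 4 genes, lower at 9 and the same at 23. The 9 include Psap, which had no Sun knockout peak and so has no counterpart in the shares that follow. Of all genes marked in both genotypes, 11.9% had more peaks in Sun knockout and 18.8% had fewer. Another gene lay within 1000 bp of 23 of the 56 peaks in Sun knockout and 22 of the 64 in wild type. The share over all peaks was not worked out, so these counts are not a trait of the group. When only peaks within 1000 bp of an annotated start were used, the median density ratio over 29 genes was -0.05 (range -0.55 to 0.42). This alternative was added after the data were seen.

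For H3K9me3, the mark of silenced chromatin, a peak was called at 6 of the 36 in both genotypes, at 5 in Sun knockout alone, at 3 in wild type alone and at 22 in neither. Among all protein-coding genes 16.9% had a peak in both, 11.2% in Sun knockout alone, 8.74% in wild type alone and 63.2% in neither. The genes held 20 peaks with 528 tags in Sun knockout and 16 peaks in wild type, most of them small. The median peak held 19.0 tags in Sun knockout and 21.5 in wild type. Of these, 6 of the 20 peaks in Sun knockout and 6 of the 16 in wild type (37.5%) overlapped a peak of the other genotype, against 37.5% and 39.5% of all H3K9me3 peaks at protein-coding genes. An H3K4me3 peak of the same genotype overlapped 8 of the 20 in Sun knockout and 8 of the 16 in wild type, against 50.8% of all H3K9me3 peaks at protein-coding genes in Sun knockout and 39.7% in wild type. Only 1.62% of the filtered H3K9me3 tags in Sun knockout and 1.69% in wild type lay in peaks, which were called without a control. Whether the small H3K9me3 peaks under H3K4me3 peaks reflect silenced chromatin was not tested.

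**Figure D5:**
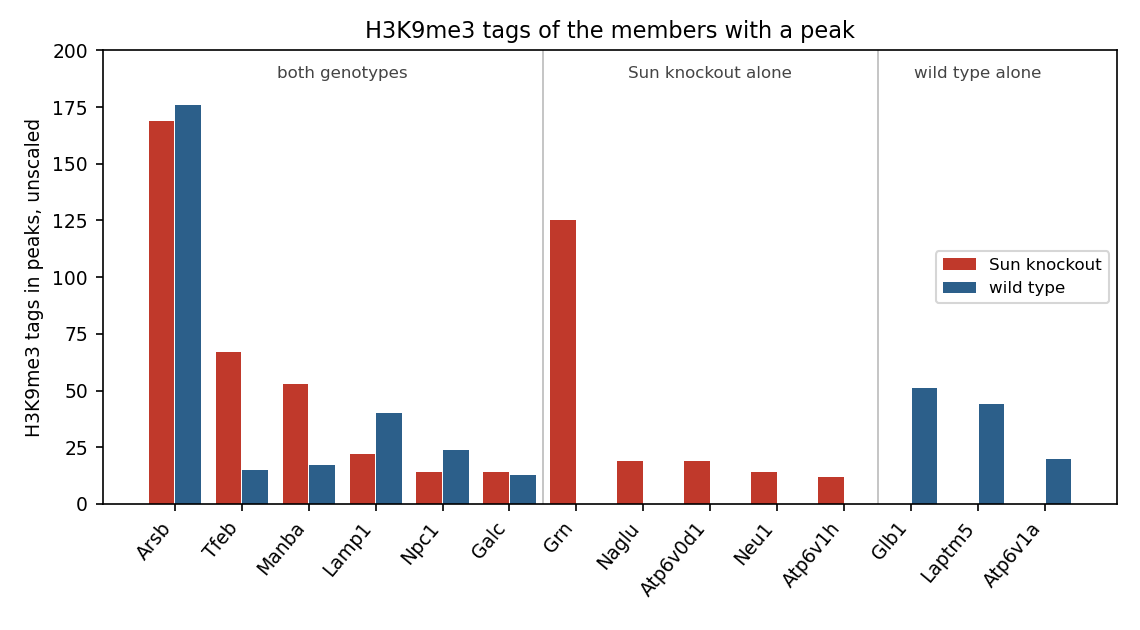
Unscaled H3K9me3 tags in the peaks of the 14 genes with a peak in either library, Sun knockout to the left of wild type in each pair. Arsb has 169 tags in Sun knockout and 176 in wild type, Grn has 125 tags in Sun knockout and no wild-type peak, and the other genes have 67 tags or fewer.

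Arsb carried the most H3K9me3, with 169 tags over 2023 bp in 6 peaks in Sun knockout and 176 tags over 2090 bp in 6 peaks in wild type. Its strongest peak lay about 70 kb inside the gene on chromosome 13 in both genotypes, with 66 tags in Sun knockout (93842767 to 93843382) and 74 tags in wild type (93842786 to 93843601). The mark at Lamp1 lay under its H3K4me3 peak, with 22 tags in Sun knockout and 40 in wild type, and summits 368 and 410 bp after the start. Galc held 14 tags in Sun knockout and 13 in wild type, and Npc1 held 14 in Sun knockout and 24 in wild type, in peaks that overlapped between genotypes.

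Tfeb and Manba had peaks in both genotypes that did not overlap each other. Tfeb held 67 tags in 3 peaks in Sun knockout, the nearest of them 6189 bp past a start, and 15 tags in 1 peak in wild type, 304 to 518 bp past a start. Manba held 53 tags in 3 peaks in Sun knockout and 17 tags in 1 peak in wild type. These were the 2 genes past 2-fold among the 3 that could be compared, with centred tag ratios of 1.94 and 1.43 and length ratios of 2.16 and 1.59. Both entered the comparison through Sun knockout alone, since neither had 50 tags in wild type. At such low tag numbers the minimum of 50 tags in 1 genotype favours unequal genes, so these ratios partly follow from it. Among all 1428 genes compared, tags were at least 2-fold higher in Sun knockout at 17.4% and lower at 16.2%, and length was at least 2-fold different either way at 32.6%. The density ratios of Arsb, Tfeb and Manba were -0.05, -0.04 and 0.02, and that of Tfeb was -0.78 with peaks within 1000 bp merged.

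The largest peak called in a single genotype was at Grn in Sun knockout, with 125 tags over 1372 bp (chromosome 11, 102437366 to 102438737) and a score of 209.89. It lies past the end of Grn, next to Fam171a2, inside the H3K4me3 peak that was also longer in Sun knockout, and with windows of 500 or 0 bp it was not assigned to Grn. The nearest wild-type H3K9me3 peak was 8427 bp away and held 40 tags. The other genes marked in Sun knockout alone were Naglu and Atp6v0d1 with 19 tags each, Neu1 with 14 and Atp6v1h with 12. These 4 peaks are among the 8 in Sun knockout that overlapped an H3K4me3 peak. Those marked in wild type alone were Glb1 with 51 tags in 2 peaks, Laptm5 with 44 tags in 2 peaks at the far end of the gene, and Atp6v1a with 20.

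The rest of the pathway was read from 3 lists of 66 further genes: 16 other V-ATPase genes, 36 other lysosomal genes and 14 genes of lysosomal signalling. H3K4me3 was present in both genotypes at 62 of them, in Sun knockout alone at 0 and in wild type alone at 2, Atp6v0e2 (69 tags) and Atp6v1b1 (31 tags), both V-ATPase isoforms of few tissues. The isoforms Atp6v1e2 and Atp6v1g3 had no peak in either library. The shares of all protein-coding genes were 67.3% in both, 1.43% in Sun knockout alone, 2.93% in wild type alone and 28.3% in neither. The median density ratio was 0.03 over the 61 genes compared, and 0.02, 0.00 and 0.14 for the 3 lists in turn. None passed 2-fold in density. The extremes were Atp6v0a4 at -0.30 and Atp6v0e at 0.50 among the V-ATPase genes, Galns at -0.28 and Ppt1 at 0.62 among the lysosomal genes, and Lamtor1 at -0.29 and Lamtor2 at 0.45 among the signalling genes. Peak length was at least 2-fold lower in Sun knockout at 5 of the 61 and higher at 0, against 5.57% and 0.986% of all genes. Among the 5 were Ids (an iduronate sulfatase, -1.21), Ppt1 (a thioesterase, -1.44) and M6pr (a receptor that sorts enzymes to the lysosome, -1.36). Tfec (a relative of TFEB, -1.29) and Lamtor4 (-2.57) were the others. Lamtor4, a subunit of the Ragulator complex that anchors mTORC1 signalling to the lysosome, had 139 tags over 1123 bp in Sun knockout and 1032 tags over 6653 bp in wild type. It was the 1 gene past 2-fold in tags (-2.37), where 1.65% of all genes were higher and 1.58% lower. The density ratio of Lamtor4 was 0.01 (-0.26 to 0.26).

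For H3K9me3 the 66 genes had a peak in both genotypes at 15, in Sun knockout alone at 9 and in wild type alone at 3. The shares of all protein-coding genes were 16.9%, 11.2% and 8.74% in that order. The 9 were Tcirg1, Atp6v1e1, Atp6v1g1, Atp6v1g2, Scarb2, Sumf1, Nagpa, Rraga and Lamtor3, with 13 to 34 tags each, and the 3 were Tfec, Rragd and Mtor, with 13, 25 and 15. Tags were at least 2-fold higher in Sun knockout at Mitf (54 tags, against 12 in wild type) and Fnip1 (55, against 19), and at least 2-fold lower at Cd63 (18, against 53) and Ostm1 (14, against 52). These were 2 higher and 2 lower among the 7 that could be compared, against 17.4% and 16.2% of all genes compared.

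The cells were checked against marker genes by H3K4me3. All 10 macrophage genes had a peak in both genotypes, with 3817 tags in Sun knockout and 4702 in wild type. The summed tags of the other lists were 238 and 311 for T and NK cell genes, 524 and 736 for B cell genes, 21 and 34 for neutrophil genes, 276 and 268 for eosinophil and mast cell genes, 994 and 1284 for dendritic cell genes, and 798 and 1324 for mesothelial and fibroblast genes, in Sun knockout and wild type in that order. Peaks in both genotypes were also called at 1 of 6 T and NK cell genes (Cd4), 2 of 5 B cell genes (Cd79a and Pax5), 2 of 6 eosinophil and mast cell genes (Siglecf and Kit), 3 of 4 dendritic cell genes and 3 of 7 mesothelial and fibroblast genes. Of 5 neutrophil genes, S100a8 had a peak in Sun knockout alone (21 tags) and Mpo in wild type alone (34 tags). Krt19, Upk3b and Col1a2, of the mesothelial and fibroblast list, had peaks in wild type alone, with 33, 101 and 79 tags. Of all protein-coding genes, 67.3% had an H3K4me3 peak in both genotypes, 1.43% in Sun knockout alone and 2.93% in wild type alone. The lists hold from 4 to 10 genes each, so their summed tags do not rank the cell types. Whether other cells in the samples had a part in the values above was not tested.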

How the data were processed

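H3K4me3 and H3K9me3 ChIP-seq libraries, 1 per genotype, were grouped by their labels. CASAVA 1.4, Bowtie 0.12.8, MACS 1.4.2, DiffBind and mm10 are named, without roles, per the submitters' processing notes. Peaks were called by the authors for each library with MACS 1.4.2, without a control, per the file headers. The deposited values were a tag count, a score, a fold enrichment (a linear ratio) and a length per peak.

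Tags and lengths of all peaks within 1000 bp of a gene were summed in pandas 2.3.3 with scipy 1.17.1 under Python 3.11.15, after a check on simulated data. Log2 ratios, Sun knockout over wild type, were centred on the median of all protein-coding genes with peaks in both libraries and at least 50 tags in 1, with exact conditional binomial 95% intervals. A change counted from 2-fold. Figures used matplotlib 3.10.9. Genes and promoters came from RefSeq, GRCm38.p6, the assembly of mm10; the gene table gave no exons, so peaks were not assigned to exons or introns. All 36 symbols matched, and 30 had a promoter.

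The genes, lists and rules were chosen with earlier results of these data known. Genes named with values were those marked in 1 genotype alone, past 2-fold, with an H3K9me3 peak, at either end of the density ratios or tag counts, and 10 chosen by name; others are named by role or for a feature seen in their peaks. Windows, scaling, score limits, peak choice and tag minimums were varied.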

Additional observations from a re-analysis of the deposited data

How the results depend on the processing

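Of 166 values recomputed for the counts and medians, 135 stayed within 1.5 times the main count or within the 95% interval of the main median. This interval was taken over the genes of a list as if independent, though they share 1 pair of libraries. It served as a limit for sorting the values and does not measure a spread between replicates. The other 31 did not. Some of the 135 could not change, such as counts of length under another scaling. The causes were not tested. For H3K4me3, a score limit of 100 gave 2 members marked in wild type alone (Psap and Grn) and Atp6v0d2 in neither, 2 past 2-fold in length that were other genes (Npc2 and Tfe3, in place of Arsb and Atp6v1c1), 1 past 2-fold in tags (Tfe3, -1.39) and 1 other pathway gene past 2-fold in density. Equal numbers of peaks gave 1 other pathway gene in Sun knockout alone and 1 in wild type alone. A window of 500 bp gave 1 member past 2-fold in tags (Man2b1, 1.18) and added it in length (1.07). Peaks near a start, an alternative chosen after seeing the data, gave 1 in tags and 1 in length (Man2b1, 1.19 and 1.07). Under both settings the peak with the starts of Wdr83 and Wdr83os was counted for Man2b1 in Sun knockout alone. That peak was called in both genotypes and ended at -976 bp from the Man2b1 start in Sun knockout and -1056 bp in wild type. These Man2b1 values therefore reflect which peak was counted. Scaling to filtered tags moved the median density ratio to -0.22 for members and -0.15 for other pathway genes, scaling to total tags to -0.12 and -0.05, and leaving out the division by length to -0.06 for other pathway genes, where 1 gene passed 2-fold, as 1 did with the strongest peak alone and 1 with peaks merged within 1000 bp. The median of all 14395 genes compared moved too, to -0.18 with filtered tags and -0.08 with total tags. Members past 2-fold in length were 0 with the strongest peak alone, 0 with paired peaks and 4 with merged peaks (Arsb, Atp6v1c1, Atp6v0d2 and Tfeb). For H3K9me3, windows of 500 and 0 bp left 4 members in Sun knockout alone, without Grn, and 0 bp left 2 in wild type alone. A score limit of 100 left 1 member marked in both genotypes (Arsb), 1 in Sun knockout alone (Grn), and 5 other pathway genes in both and 1 in Sun knockout alone. Under that limit, with the strongest peak alone, with paired peaks and with a minimum of 100 tags, only 1 member could be compared. The count past 2-fold in H3K9me3 tags or length was 0 in each, with Tfeb and Manba outside the comparison. A minimum of 20 tags added Lamp1 in tags (-1.04).

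The sign of the density ratio of single members changed at 23 of 35 when tags were not divided by length, at 7 with filtered tags, and at 0 with windows of 500 or 2500 bp. No paired analysis was possible because each mark had 1 library per genotype. The depth of the H3K9me3 calls, a median of 19.0 tags per member peak in Sun knockout and 21.5 in wild type, limits their ratios.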
